A study of Drosophila melanogaster with 8 samples.

Results

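The odorant-binding proteins and chemoreceptors of Drosophila melanogaster were examined in heads of drug-fed males. A gene was taken as a member when its symbol in the array annotation was Obp, Or, Gr or Ir followed by a number and a letter, or was a5, a6 or lush, and the features of a gene were averaged on each array. The rule found 26 of 6793 named genes, on 78 of 27648 features: 20 odorant-binding proteins with lush among them, the 5 receptors Or33a, Gr61a, Ir47a, Ir76a and Ir93a, and the antennal protein a6. No feature used here carried a5 as its only symbol. The current RefSeq annotation holds 52 binding protein genes and 186 receptor genes under the same name rule, so the receptors in particular were sampled thinly. A further 8 features carried several symbols with at least 1 from these families and were assigned to no gene.

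Odorant-binding proteins are small soluble proteins that support cells secrete into the fluid of smell and taste hairs, where many bind odorants and pheromones, although several are made mainly in other tissues such as fat body, glia or the male reproductive tract. The receptors sit in the membrane of sensory neurons. Or proteins detect odorants, Gr proteins mostly tastants, and Ir proteins, relatives of ionotropic glutamate receptors, detect odorants, tastants, temperature or humidity. Antennae and mouthparts belong to the fly head, so whole-head RNA contains them as a small part of the tissue.

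Unmated Oregon-R males, a wild-type strain, were 3 to 4 days old at the start and were kept at 30 per vial. Treated flies ate food with 8 mg/ml of the convulsant pentylenetetrazole (PTZ), an antagonist of GABA-A receptors, over 7 days, followed by 3 days on food with 16 mg/ml of the anticonvulsant gabapentin (GBP). Heads of the day 10 group were collected at that point, and heads of the day 14 group after 4 more days on normal food. Controls stayed on normal food and were moved and collected in parallel. For day 14 replicates 1, 2 and 3, the feeding schedule in the labels names the second agent as ETH without explaining it, so the second drug of those replicates is uncertain. Each of the 4 arrays of a day compared the pooled heads of 1 treated replicate with their own control pool, with treated RNA in Cy5 on replicates 1 and 2 and in Cy3 on replicates 3 and 4.

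The arrays yielded 6628 to 19719 values each, and the deposited array medians ran from -0.83 to 0.29 on the log2 scale. All values below are log2 ratios of treated over control relative to the median of their array, so a value of 0 means the ratio of the median feature. The sources used here do not say which dye was the numerator or whether the authors had already turned the swapped arrays. The deposited ratios were taken to be Cy5 over Cy3, and arrays with treated RNA in Cy3 were turned. Every direction given here depends on that reading, and the member means that change sign when the deposited signs are kept are listed in the closing section. Between arrays of opposite dye orientation, deposited values correlated across features with a Pearson r from -0.28 to 0.39. Each r below 0 there involved day 14 replicate 1, the array with the fewest values. Between arrays of the same orientation r ran from -0.03 to 0.42. This is a description, for which features are not independent replicates, and its bearing on the reading of the signs was not tested. A table of ratios holds no expression levels, so the head tissue could only be checked by the presence of values: 4 of 5 photoreceptor markers (Arr1, Arr2, trp and inaD) were on the array, 3 of them with values on at least 6 arrays. Of 7 markers of antennal support cells, lush was the only one under its own name, and of 4 neuronal markers, nSyb.

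Binding protein spots more often passed the authors' spot filters than other named features did. At day 10, 88.3% of the binding protein spots held a value, against 75.0% of receptor spots and 74.3% of all named spots. At day 14 the shares were 63.3%, 80.0% and 45.8%. A fit required values on 3 or more of a day's 4 arrays, which 23 members had at day 10 and 17 at day 14. Ir47a, Or33a and Obp99a had values on 2 arrays at day 10. At day 14, Obp19a, Obp99a, Obp99b, Obp99c, Obp99d and lush had 2, and Ir93a, Obp59a and Obp84a had 1.

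The first comparison asked which members differed between drug-fed and control heads at the end of the second feeding. No member passed the test at day 10. Of 19 binding proteins measured, 15 had a mean below 0, with a median of -0.12, while 44.6% of all 11312 genes and features tested lay below 0, with a median of 0.03. Of 3 receptors, Gr61a and Ir93a had means below 0 and Ir76a above, with a median of -0.21. In limma's moderated test 0 of the 23 members passed an adjusted p of 0.05, the background being 0% (0 of 11312), and 0 of 23 had an unadjusted p under 0.05 against a background of 4.54%. None of the 23 members tested had the same sign on every measured day 10 array, where 6.83% of all tested were below 0 throughout and 6.12% above.

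Among the binding proteins, lush, which carries the male pheromone cis-vaccenyl acetate in antennal hairs, was farthest from 0 in this fit. It read -1.46, -0.65, -0.50 and 0.38 on day 10 replicates 1 to 4, so 3 arrays were below 0 and replicate 4 above. The mean was -0.56 ± 0.28 (SE, n = 4; 95% interval -1.20 to 0.09; limma adjusted p = 0.991), and it was -0.25 without day 10 replicate 1 and -0.87 without day 10 replicate 4. The spot pair of lush lay in a stretch of the table whose other features had medians of -0.80, -0.73, 0.01 and 0.45 on these arrays, and with values centred by table position the mean of lush was -0.25. The part of this stretch in the result was not tested further.

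Obp99b, a product of fat body in male heads, had the widest spread. It read 1.35, -0.70, -0.92 and -1.20 on replicates 1 to 4. Replicate 1 alone was above 0, and the mean was -0.37 ± 0.39 (SE, n = 4). The first of its 2 spot pairs had no value on replicates 1 and 3, and on replicate 2 the pairs read -1.24 and -0.16. The 1.35 of replicate 1 came from the second pair alone, and the other features of that stretch of the table had a median of 1.035 there. Centred by position, Obp99b read 0.25, -0.84, -0.98 and -0.60 on replicates 1 to 4. The mean was -0.94 without day 10 replicate 1 and -0.09 without day 10 replicate 4, each with a limma adjusted p of at least 0.944. It was -0.54 centred by position (limma adjusted p = 0.767) and 0.69 with the deposited signs kept (limma adjusted p = 0.231), in both cases farther from 0 than lush. Obp99d had a mean of -0.34, but of -0.01 where the median of its features was taken and of 0.02 with the deposited signs kept. Obp99c had a mean of -0.17, and of 0.22 with the deposited signs kept, while Obp99a had values of -0.97 and -0.01 on replicates 1 and 4 only. The fat body list, which includes Obp99b itself, had 5 of 6 markers on the array, and they did not move together. On day 10 replicate 1, Yp2 read 1.91 and Obp99b 1.35 while Lsp2 read -1.40 and fit -0.78, and on replicate 3 Obp99b was the only marker with a value. The medians of the list ran from -1.05 to -0.10 on the 4 day 10 arrays and from -0.32 to 0.80 on the day 14 arrays. The part of this list in the Obp99b result was not tested. Whether each listed gene marks fat body in heads of males, the only sex used here, was not checked. In RNA of whole heads, fewer cells of a type and less RNA per cell cannot be told apart.

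The 4 members of the Obp56 group had day 10 means close to each other in this fit but not in others. Obp56d, Obp56e, Obp56g and Obp56h stood at -0.16, -0.18, -0.20 and -0.16, with standard errors from 0.13 to 0.23. With the deposited signs kept the means were 0.36, 0.45, 0.03 and 0.08, and centred by position -0.18, -0.12, -0.02 and 0.0003. The values of Obp56d and Obp56e average spot pairs whose day 10 means differed in sign. RefSeq places Obp56d beside Obp56e and Obp56g beside Obp56h. Their arrays did not move alike: Obp56e read 0.55, -0.01, -0.86 and -0.40, and Obp56g, also known from seminal fluid, read -0.05, -0.29, -0.58 and 0.12. Replicate 3 was the lowest array for both, and each had at least 1 array above 0.

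The Obp19 genes are also consecutive neighbours in RefSeq, and they split in sign. Obp19b, which acts in the taste of amino acids, had a mean of 0.17 and Obp19c of 0.25, whereas Obp19a and Obp19d, a protein of both smell and taste organs, had -0.08 and -0.19. Obp19d was at 0.24 under the deposited signs. Obp19c read 0.80, 0.40, 0.61 and -0.80, with only replicate 4 below 0. Standard errors of the 4 genes ran from 0.16 to 0.25, and every 95% interval included 0.

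The other binding proteins lay closer to 0 or varied widely. Obp84a, expressed in the antenna, read 0.97, 0.50, 0.34 and -0.75, for a mean of 0.26 ± 0.28 (SE, n = 4). Obp59a, which is needed for sensing humidity, had a mean of 0.01. Means of Obp44a (a protein abundant in glia), Obp47a, Obp57c, Obp83cd (a binding protein with a duplicated domain) and Obp8a (also found in seminal fluid) lay between -0.12 and -0.05. The antennal protein a6 had 0.01.

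**Figure D1:**
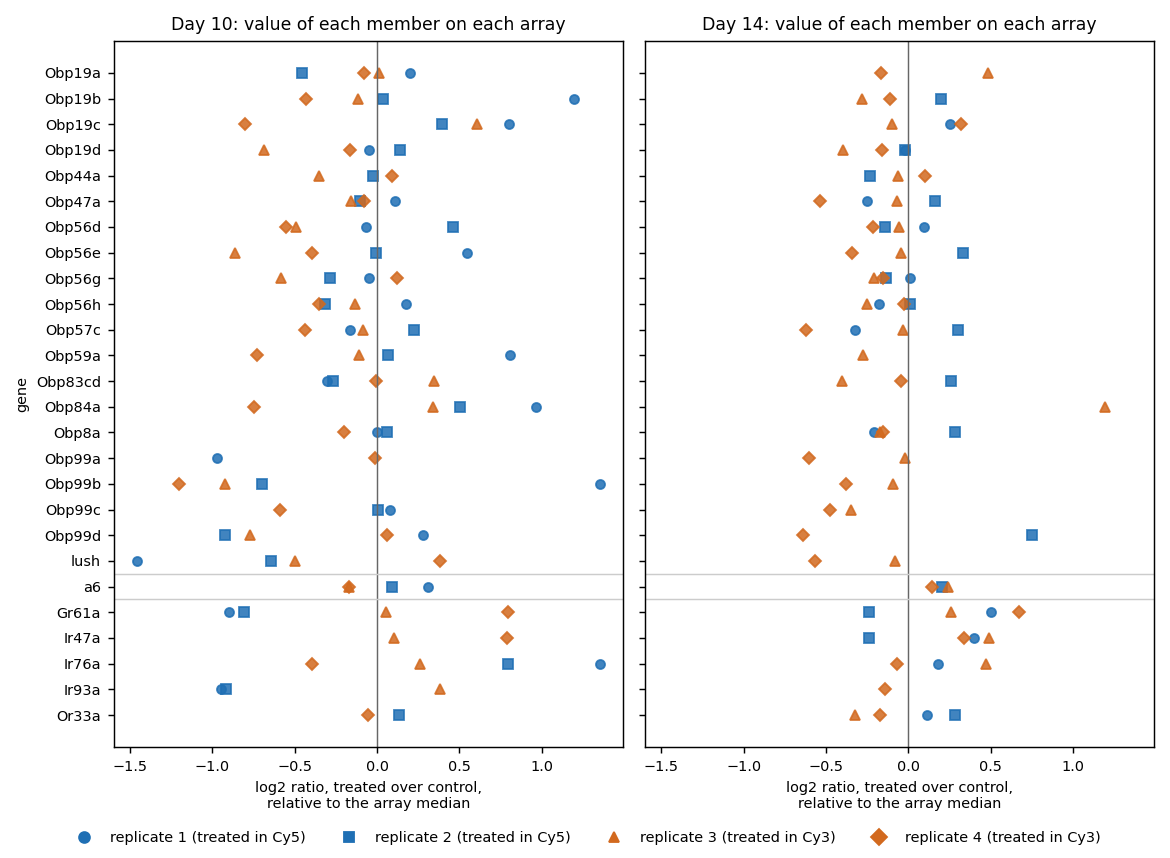
Log2 ratio of treated over control, relative to the array median, of each of the 26 members on each day 10 array (left) and day 14 array (right); each point is 1 array, blue where treated RNA carried Cy5 and orange where it carried Cy3. At day 10 every member with at least 3 values has points on both sides of 0, and at day 14 the points of Obp19d all lie below 0 and those of a6 above.

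Gr61a, Ir93a and Ir76a were the receptors with enough values for a fit at day 10. For each the values of the Cy5 and the Cy3 arrays did not overlap. This was not particular to receptors: it also held for lush, Obp19b, Obp59a and a6, among others, though not for Obp19a or Obp19c. The share over all tested was not counted, so the split cannot be set against a background and is not read as a result. Gr61a, of the sugar receptor family, read -0.90 and -0.81 on the Cy5 arrays and 0.06 and 0.80 on the Cy3 arrays. Its mean was -0.21 ± 0.27 (SE, n = 4). Ir93a, a co-receptor for cooling and humidity, read -0.95 and -0.92 on the Cy5 arrays and 0.38 on replicate 3, for a mean of -0.49 ± 0.31 (SE, n = 3; 95% interval -1.28 to 0.29; limma adjusted p = 0.991). Ir76a, an antennal receptor for amines, went the other way and read 1.35, 0.80, 0.26 and -0.39, with a mean of 0.50 ± 0.26 (SE, n = 4; 95% interval -0.09 to 1.10; limma adjusted p = 0.991). Without 1 array the mean of Ir76a ran from 0.22 (day 10 replicate 1 left out) to 0.80 (replicate 4), and that of Ir93a from -0.93 (replicate 3) to -0.27 (replicate 1). With values centred by position the mean of Ir76a was 0.15 and that of Ir93a was -0.41. The spots of the Ir93a pair disagreed, with a median gap of 1.385 on the day 10 arrays. That gap was 0.30 for Gr61a and 0.33 for Ir76a, and 0.21 for spot pairs of all members over all arrays. Ir47a, of the divergent Ir group, had 0.10 and 0.79 on replicates 3 and 4, and Or33a, an odorant receptor, 0.14 and -0.06 on replicates 2 and 4.

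With the deposited signs kept, Gr61a and Ir93a were below 0 on every measured day 10 array, as were 15.4% of all tested. Above 0 on every array were 4 of 23, namely Obp19b, Obp59a, Obp99c and a6, against 18.3% of all tested. The means of Gr61a and Ir93a were then -0.64 ± 0.20 (SE, n = 4; limma adjusted p = 0.104) and -0.75 ± 0.18 (SE, n = 3; limma adjusted p = 0.0933). Under that reading 7 of 23 members had an unadjusted p under 0.05 against a background of 22.6%, and 0 of 23 passed the adjusted threshold against a background of 0%. Those 7 were Gr61a, Ir76a, Ir93a, Obp19b, Obp56d, Obp56e and Obp59a. The binding proteins then had 16 of 19 means above 0 and a median of 0.15, so the side of 0 on which they lay followed the reading of the signs. Uncentred, all 19 binding proteins lay below 0, as did 86.1% of all tested, with a median of -0.38 against -0.25. Centred by position, 12 of 19 lay below 0 with a median of -0.01.

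**Figure D2:**
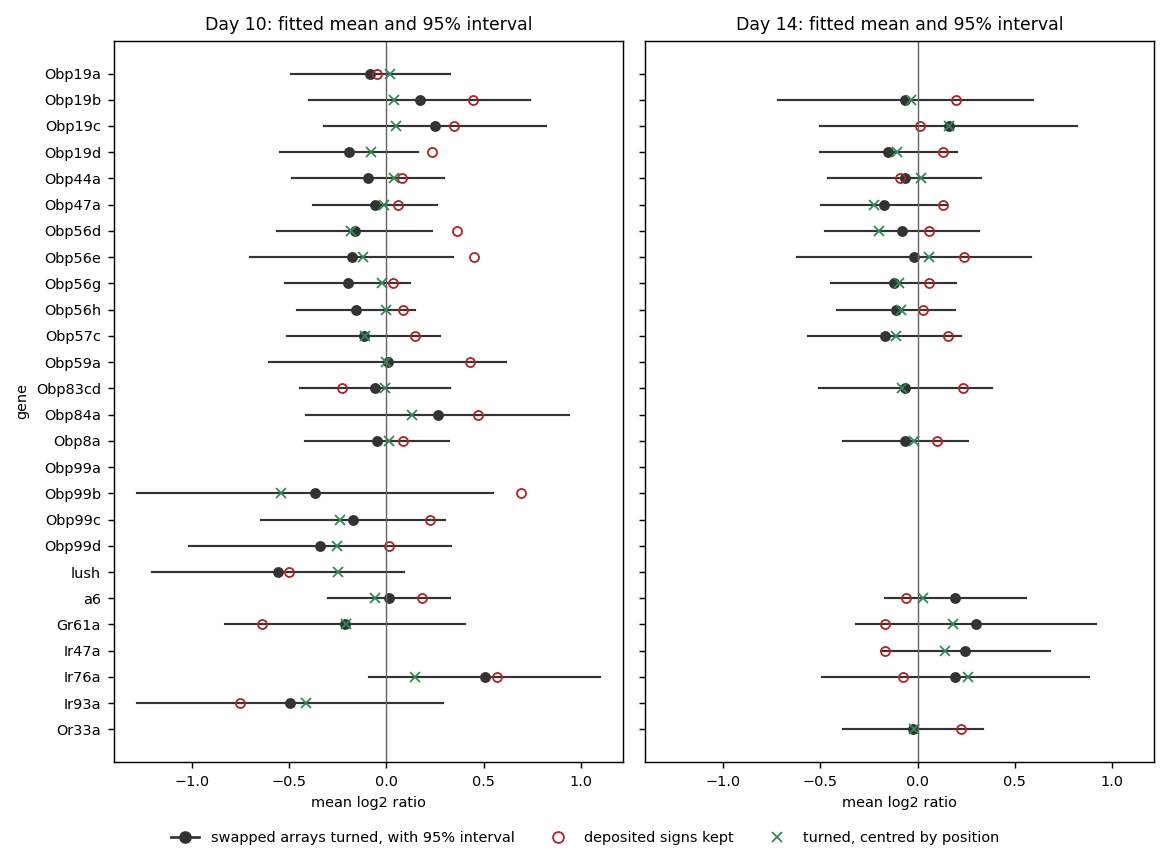
Fitted mean log2 ratio of each member at day 10 (left) and day 14 (right), with filled circles and 95% interval bars for swapped arrays turned, open circles for deposited signs kept and crosses for values centred by table position. Every interval includes 0, and the open circles of most binding proteins lie on the other side of 0 from the filled ones.

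The second comparison asked which members differed from control after the return to normal food. At day 14 the binding proteins lay close to 0: of 12 measured, 11 had means below 0, with a median of -0.07, against 48.9% of all 6142 tested below 0 and a median of 0.01. Of 4 receptors, Gr61a, Ir47a and Ir76a had means above 0 and Or33a below, with a median of 0.22. None of the 17 members passed an adjusted p of 0.05 (limma; background 0%, 0 of 6142), and 0 of 17 had an unadjusted p under 0.05 against a background of 2.87%.

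The binding proteins ranged from -0.18 to 0.16 in their means. Obp19d was the only one below 0 on every day 14 array, as were 12.2% of all tested. It read -0.02, -0.02, -0.40 and -0.16 on replicates 1 to 4, with the lower values on the Cy3 arrays, and its mean was -0.15 ± 0.16 (SE, n = 4). These values average spot pairs, of which the first read 0.05 on replicate 2 and the second 0.13 on replicate 1. Centred by position, Obp19d read 0.07, 0.04, -0.34 and -0.19. Obp47a, whose role is less known, read -0.25, 0.16, -0.07 and -0.53, for a mean of -0.18 ± 0.14 (SE, n = 4; 95% interval -0.49 to 0.14; limma adjusted p = 0.999). Replicate 2 was its only array above 0.

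Obp57c stood at -0.17, and Obp19c, at 0.16, was the only binding protein with a mean above 0. The Obp56 group had means of -0.08 for Obp56d, -0.02 for Obp56e, -0.12 for Obp56g and -0.11 for Obp56h. Obp19b, Obp44a, Obp83cd and Obp8a all lay between -0.07 and -0.06. With the deposited signs kept, 11 of the 12 had means above 0, Obp44a being the exception, and their median was 0.11.

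The receptors and a6 reached slightly larger means. Ir47a read 0.40, -0.24, 0.49 and 0.34, with replicate 2 alone below 0, for a mean of 0.25 ± 0.19 (SE, n = 4; 95% interval -0.19 to 0.68; limma adjusted p = 0.999). Gr61a likewise had replicate 2 alone below 0, reading 0.50, -0.24, 0.26 and 0.67, for a mean of 0.30 ± 0.27 (SE, n = 4). The antennal protein a6 read 0.20, 0.24 and 0.14 on replicates 2, 3 and 4, all above 0 as were 10.8% of all tested, for a mean of 0.19 ± 0.16 (SE, n = 3; 95% interval -0.17 to 0.56; limma adjusted p = 0.999). The standard error of a6 draws on its day 10 arrays and on all other genes, and its own 3 values had a standard deviation of 0.05. The other features of its stretch of the table had medians of 0.13, 0.23 and 0.105 on replicates 2, 3 and 4. Centred by position, the day 14 mean of a6 was 0.03, and the part of this stretch was not tested.

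Ir76a had a day 14 mean of 0.19 and Or33a of -0.02. With the deposited signs kept, Gr61a, Ir47a, Ir76a and a6 had means below 0 (-0.17, -0.17, -0.07 and -0.06), and the receptor median was -0.12. Under that reading 4 of 17 members, Obp19b, Obp56e, Obp83cd and Or33a, were above 0 on every measured array (background 12.1%), 0 of 17 were below 0 throughout (background 12.9%), and 0 of 17 had an unadjusted p under 0.05 (background 5.13%).

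**Figure D3:**
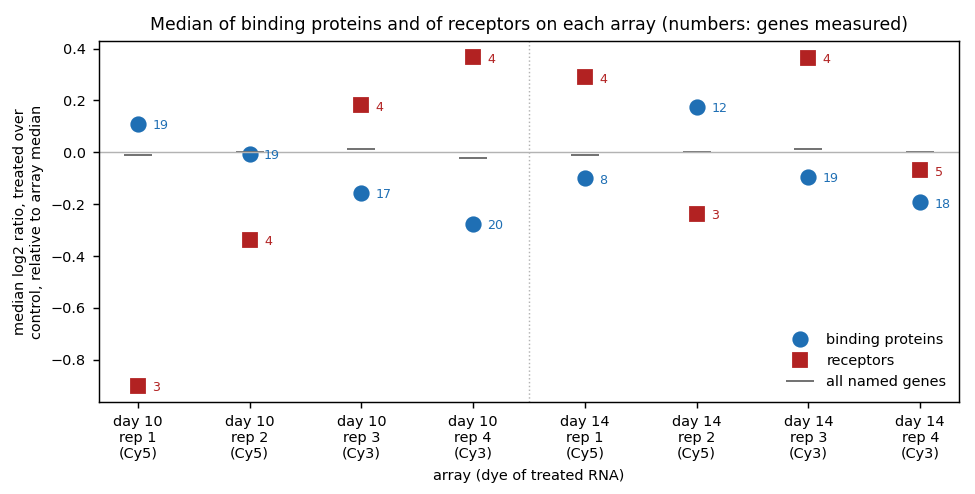
Median log2 ratio of the measured binding proteins (blue circles), receptors (red squares) and all named genes (grey bars) on each array, with the number of genes measured beside each point. The binding protein median runs from -0.28 to 0.18 and the receptor median from -0.90 to 0.37, and on 6 of the 8 arrays the pair lies on opposite sides of 0.

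The medians of binding proteins and receptors lay on opposite sides of 0 on 6 of 8 arrays. At day 10 the binding protein medians were 0.11, -0.01, -0.16 and -0.28 on replicates 1 to 4, and the receptor medians -0.90, -0.34, 0.18 and 0.37. At day 14 they were -0.10, 0.18, -0.09 and -0.19 for binding proteins and 0.29, -0.24, 0.36 and -0.07 for receptors. Receptor medians rested on 3 to 5 genes per array and were not tested.

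The third comparison asked whether the ratio of treated to control heads differed between the days, which have separate control pools. The 15 members measured on both days gave no call: 0 of 15 passed an adjusted p of 0.05 (limma; background 0%, 0 of 5187), and 0 of 15 had an unadjusted p under 0.05 against a background of 1.39%. The sugar receptor Gr61a differed most, at 0.51 ± 0.39 higher on day 14 (SE; n = 4 on each day; 95% interval -0.36 to 1.38; limma adjusted p = 1.00). Its day 14 values of -0.24 to 0.67 lay within its day 10 range of -0.90 to 0.80. The antennal protein a6 had a difference of 0.18 (95% interval -0.30 to 0.66) and Ir76a of -0.31 (95% interval -1.22 to 0.60). The 12 binding proteins were evenly divided, with 6 below 0 and 6 above, from -0.24 to 0.16, and the median difference was 0.01. Over all 15 members, 7 differences lay below 0 against a background of 51.2%. With the deposited signs kept, 1 of 15, Obp83cd, had an unadjusted p under 0.05 (background 6.61%). For no member did the day 14 values all lie above or all below the day 10 values, as they did for 1.93% and 1.41% of all tested.

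For 12 members the array held more than 1 spot pair, and the pairs of a gene were compared. Neighbouring spots of a pair had a median gap of 0.21 on an array (237 comparisons), and different spot pairs of the same member had a median gap of 0.36, both over all 8 arrays. Different members at most 24 features apart in the table had a median gap of 0.24 over all arrays, and members further apart 0.42. At day 10 these 3 gaps between pairs were 0.50, 0.28 and 0.56, and at day 14 they were 0.28, 0.19 and 0.29. The comparisons share arrays and genes, and no test was made.

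The first pairs of Obp59a, Obp19b and Obp56e follow each other in the table. On day 10 replicate 1 they read 1.37, 1.19 and 1.07, beside a median of 1.60 for the other features of their stretch, and on replicate 4 they read -1.27, -0.73 and -1.08, beside -0.99. The second pairs, elsewhere on the array, read 0.24 for Obp59a and 0.02 for Obp56e on replicate 1, and -0.20, -0.13 and 0.28 for the 3 genes on replicate 4. On these arrays the first pairs had the sign of their surroundings. On replicate 2 they read 0.19, -0.02 and -0.01 beside 0.47, and on replicate 3 they read -0.35, -0.12 and -0.86 beside -0.71. The second pair of Obp56e, at 0.02 on replicate 1, lay in a stretch with a median of -0.82, so not every pair followed its surroundings.

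Obp99d and Obp19c gave the widest gaps between pairs on an array, both on day 10 replicate 3. The first pair of Obp99d read 0.36, 0.21, 0.91 and 0.20 on day 10 replicates 1 to 4 and the second 0.11, -2.06, -2.45 and -0.08, for means of 0.42 and -1.12. The spots within the second pair also disagreed, with a median day 10 gap of 2.06 against 0.19 within the first. The surroundings of the second pair had medians of -0.01, -0.21, 0.31 and 0.03. For Obp19c the pairs read 1.89 and -0.68 on replicate 3, and the means of the pairs were 0.65 and -0.15. The averaged values of both genes therefore combine pairs of opposite sign. The pair means of Obp83cd, 0.18 and -0.51, also differed in sign. So did those of Obp56d (-0.05, 0.18 and -0.34), Obp56e (-0.22 and 0.15), Obp19b (0.08 and -0.02) and Obp59a (-0.01 and 0.03). Of these genes, only the pairs of Obp59a had values on the same arrays. The pair means of Obp99b were -1.32 and -0.18, also over different sets of arrays.

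**Figure D4:**
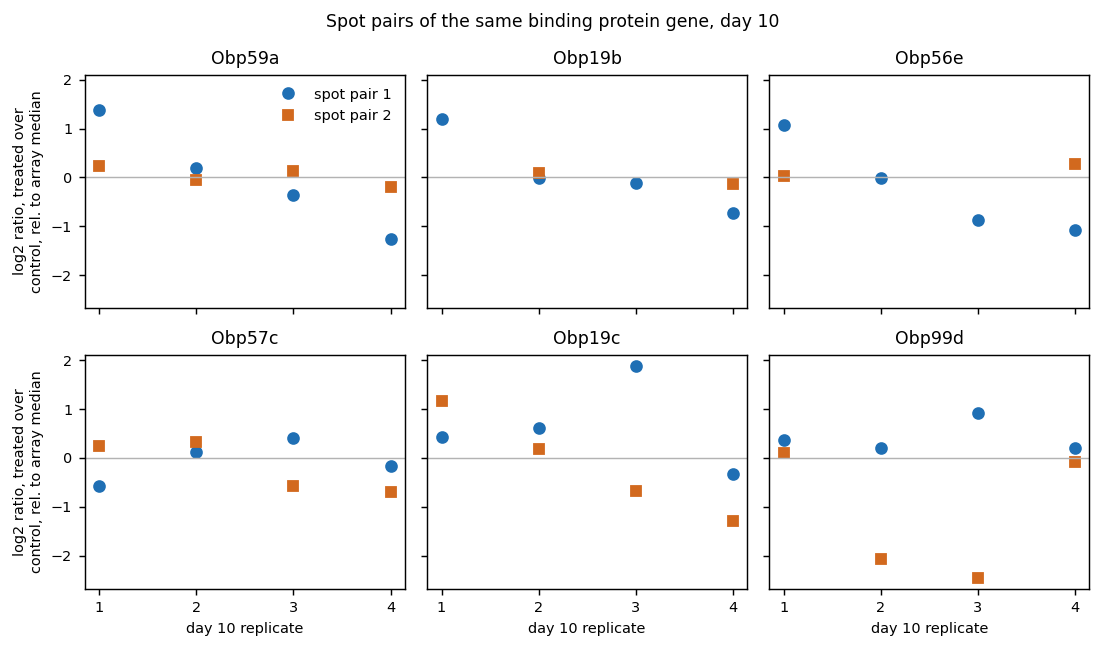
Log2 ratio, treated over control and relative to the array median, of each spot pair of 6 binding protein genes on day 10 replicates 1 to 4; colours separate the spot pairs of a gene. For Obp59a, Obp19b and Obp56e the first pair ranges from 1.37 to -1.27 while the second stays between -0.20 and 0.28, and for Obp99d the second pair falls to -2.45 on replicate 3.

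A list of 64 other genes of smell and taste also gave no call. Of these, 10 had a feature of their own. At day 10, 4 of 6 tested had means above 0 and 2 below, and at day 14 all 5 were above. In limma's test 0 of 6 at day 10 and 0 of 5 at day 14 passed an adjusted p of 0.05 or had an unadjusted p under 0.05. CheA75a, of a family expressed in taste hairs, had the smallest day 10 p, with 0.42, 0.22, 0.57 and -0.01 on replicates 1 to 4 and a mean of 0.30 ± 0.14 (SE, n = 4), followed by Galphao, a G protein subunit, at 0.22. At day 14, CheA75a had a mean of 0.21 and Galphaq, a G protein subunit of phototransduction, of 0.22. Centred by position, CheA75a was at 0.03 and 0.04 on the 2 days, Galphao at 0.12 at day 10 and Galphaq at -0.06 at day 14. Under the deposited signs CheA75a was at 0.02 and -0.01 on those days, Galphao at 0.19 at day 10 and Galphaq at -0.09 at day 14.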

How the data were processed

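Each array compared amplified, dye-labelled RNA of treated and control heads on spotted cDNA arrays. Per the labels' protocols and the series' design text, images were quantified in GenePix Pro 6.0, ratios were normalized per array by the authors in Acuity 4.0, and weak, saturated or uneven spots were left blank. The deposited values are log2 ratios; the base follows from their extremes. No genome build is named in the sources used here, so no coordinates are given, and no sequence is shown. The table held 0 columns without a sample.

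Of 27648 features, 15116 had 1 gene symbol, 102 several and 12430 none; 14894 were matched to RefSeq (Release 6 plus ISO1 MT) by gene identifier, all 78 member features among them. Arrays with treated RNA in Cy3 were turned, each array was centred on its median, and features of a gene were averaged. Centring was chosen because the deposited medians were known to differ. The moderated test was run in limma 3.58.1 under R 4.3.3, with the 8 arrays together and a mean per day, on genes and unnamed features with values on at least 3 arrays of a day, with Benjamini-Hochberg adjustment over all of them, a threshold of 0.05 and 95% intervals. Features without a single symbol entered 1 by 1. Errors are standard errors of this fit. The number of arrays limits the precision. Replicates are biological per the design text.

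The members, lists, centring and alternatives were chosen with earlier results of these data known. Every member with at least 3 values on a day is named, full statistics go to up to 3 members with the smallest unadjusted p per comparison, and the other genes of smell and taste are named by the 2 smallest p per day. Features that stood out for a wide spread or disagreement between spot pairs were chosen after their values were seen. Alternatives kept the deposited signs, left arrays uncentred, centred by runs of features in table order, required all 4 arrays, took medians of features, included a replicate block or a dye term, fitted each day alone and left out each array. The script was tested on simulated data with independent normal noise. Of 200 genes or features given a log2 change of 1, 43 were called at day 10 and 142 at day 14. For a log2 change of 2 the counts were 165 and 192. A member without a call may therefore still have changed.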

Additional observations from a re-analysis of the deposited data

Results flagged for a closer look

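Obp8a on day 14 replicate 2 read 0.285 while the other day 14 replicates read -0.21, -0.17 and -0.15. The gap to the nearest array was large against the range of the group. It was 1 of 29 combinations of member and day with 4 values, and chance alone gives about 1 in 20. Obp8a comes from a single spot pair.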

How the results depend on the processing

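No member passed an adjusted p of 0.05 under any alternative run; the lowest was 0.0933, for Ir93a at day 10 with the deposited signs kept. With those signs kept, the binding protein medians were 0.1451 at day 10 and 0.1142 at day 14, and the receptor median at day 14 was -0.1195. Uncentred, the binding protein median at day 10 was -0.38, where all tested had a median of -0.25 and, for the day difference, 0.27. A day's median cannot move when an array of the other day is left out or the day is fitted alone. It may also cross 0 without counting as moved. The other 51 of 55 list results kept their count or moved by less than the spread between arrays. All 56 with an array left out also kept their count or moved by less than that spread. That spread is wide: with an array left out the binding protein median ran from -0.19 (without day 10 replicate 1) to -0.05 (without day 10 replicate 3) at day 10 and from -0.19 (without day 14 replicate 2) to -0.05 (without day 14 replicate 4) at day 14, and the receptor median at day 14 from 0.12 (without day 14 replicate 3) to 0.30 (without day 14 replicate 2). The day 10 receptor median crossed 0 without day 10 replicate 1 (0.0143) and where Ir93a dropped out for a missing array (0.15, with all 4 arrays required or with the replicate block). Over all tested at day 10, 513 of 11312 had an unadjusted p under 0.05, against 1650 without day 10 replicate 4 and 2558 with the deposited signs kept, and 0 passed the adjusted threshold in each. The cause of these changes was not tested.

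Counted here are 23 member means at day 10, 17 at day 14 and the day differences of Gr61a, a6 and Ir76a; the other 12 differences were not counted. Of 322 such values under other settings, 49 changed sign. Among the 322, 40 came from each day fitted alone and 30 from all 4 arrays required, where no sign could change. Deposited signs kept gave, at day 10, 0.24 for Obp19d, 0.0783 for Obp44a, 0.0604 for Obp47a, 0.36 for Obp56d, 0.45 for Obp56e, 0.032 for Obp56g, 0.0844 for Obp56h, 0.15 for Obp57c, 0.086 for Obp8a, 0.69 for Obp99b, 0.22 for Obp99c and 0.016 for Obp99d. At day 14 they gave -0.17 for Gr61a and Ir47a, -0.0728 for Ir76a, 0.19 for Obp19b, 0.13 for Obp19d and Obp47a, 0.0577 for Obp56d, 0.0594 for Obp56g, 0.24 for Obp56e, 0.0263 for Obp56h, 0.16 for Obp57c, 0.23 for Obp83cd, 0.10 for Obp8a, 0.22 for Or33a and -0.0597 for a6, and for the day difference -0.24 for a6. Centring by position gave 0.0201 for Obp19a, 0.0418 for Obp44a, 0.0003 for Obp56h, -0.0036 for Obp59a, 0.015 for Obp8a and -0.0575 for a6 at day 10, 0.0152 for Obp44a and 0.0562 for Obp56e at day 14, and 0.11 for the Ir76a difference. Uncentred values gave -0.0935 for Obp19b, -0.0158 for Obp19c, -0.26 for Obp59a, -0.0011 for Obp84a and -0.25 for a6 at day 10, and 0.13 for the Ir76a difference. The dye term gave 0.05 for Obp19b and 0.11 for Obp56e at day 14, and medians of features gave -0.0285 for Obp19c at day 14 and -0.0102 for Obp59a at day 10.

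The replicate block gave 0.28 for Obp19b and 0.22 for Obp56e at day 14 and changed no call; same-numbered arrays of the 2 days had deviations correlated at 0.03, 0.37, 0.22 and 0.19 over 2217 genes and features, and the numbers share a dye orientation, so they were not taken as pairs. Each day fitted alone and all 4 arrays required leave a member mean as it is, so no sign could change there.

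With an array left out, 19 of 344 of these values changed sign. The 344 include day means with an array of the other day left out, which could not change. Ranges at day 10 were -0.55 to 0.0143 for Gr61a, -0.17 to 0.0432 for Obp19a, -0.17 to 0.37 for Obp19b, -0.19 to 0.0342 for Obp44a, -0.42 to 0.0485 for Obp56e, -0.26 to 0.25 for Obp59a, -0.19 to 0.0241 for Obp83cd, -0.10 to 0.0282 for Obp8a, -0.30 to 0.0395 for Obp99c and -0.0843 to 0.0757 for a6. At day 14 they were -0.19 to 0.0425 for Obp19b, -0.15 to 0.0175 for Obp44a, -0.19 to 0.14 for Obp56e, -0.22 to 0.11 for Obp83cd and -0.13 to 0.076 for Or33a. The Gr61a difference had an unadjusted p under 0.05 only without day 10 replicate 4, with 0.85 there.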

Other observations

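Obp84a read 1.19 on day 14 replicate 3, its only day 14 value, against 0.34 on day 10 replicate 3. Obp59a read -0.27 on day 14 replicate 3, also its only value of that day. Obp99c read -0.35 and -0.48 and lush -0.08 and -0.57 on day 14 replicates 3 and 4. Members with fewer than 3 values on a day entered no fit.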
